A study of Mus musculus with 9 samples.

Results

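The transcripts described here encode the nuclear subunits of the mitochondrial respiratory chain and ATP synthase, together with the Ndufaf assembly factors of complex I, in BV-2 cells. Members were chosen by gene symbol, as the Ndufa, Ndufb, Ndufc, Ndufs and Ndufv genes, Sdha to Sdhd, the Uqcr genes, Cyc1, the Cox4 to Cox8 genes and the Atp5 genes. This rule found 72 of the 12413 symbols in the count table. They fell into 34 genes of complex I, 4 of complex II, 9 of complex III, 15 of complex IV, 2 of complex V and 8 Ndufaf genes. Ndufa4 and its relative Ndufa4l2 carry complex I names and were placed in complex IV, of which Ndufa4 is a subunit. Of 97 RefSeq protein-coding symbols that match the rule, the other 25 were not analysed here, and complex V rests on 2 of 17 Atp5 symbols.

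Complex I takes electrons from NADH and complex II from succinate, and both pass them to ubiquinone. Complex III moves them on to cytochrome c and complex IV to oxygen. Complexes I, III and IV pump protons across the inner mitochondrial membrane, and complex V uses the return flow to make ATP. The core subunits hold the flavin, iron-sulfur clusters, hemes and copper that carry electrons, while accessory subunits support assembly, stability and regulation. In macrophages and microglia, LPS is known to move metabolism toward glycolysis. The study itself describes the other direction for microglia, with LPS raising oxidative phosphorylation while glycolysis is held down.

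BV-2 is an immortalized line of mouse microglia, and all 9 libraries came from this 1 line. Control cells (3 libraries) received PBS. Medium cells (3 libraries) received LPS, the endotoxin of the bacterial outer membrane, and BHB cells (3 libraries) received LPS together with the ketone body β-hydroxybutyrate. The culture methods of the study give 1 μg/mL for LPS and 1.5 mM for R-3-hydroxybutyric acid. No library was treated with BHB in the absence of LPS, and the labels give no exposure time. Every group thus shares the cell line, and Medium and BHB share LPS. The comparisons ask how the subunit transcripts differ after LPS, and after LPS when BHB is present.

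The libraries held 23411672 to 32767278 counts. Of these, the members took 0.542% to 0.545% in Control, 0.516% to 0.544% in Medium and 0.539% to 0.570% in BHB. Values below are CPM, counts scaled to the library size and its TMM factor, and differences are log2 fold changes with their standard error (SE). Tests are edgeR's quasi-likelihood test with Benjamini-Hochberg adjustment over all 10413 genes that passed a filter on low counts, called at an adjusted p of 0.05. The labels do not say whether replicates were separate cultures, so p-values may measure technical spread alone. The study's statistics section speaks in general of 3 or more independent biological replicates, without naming these libraries. Most genes of the table were called, and each count of members is therefore read against the share of all genes. Of 10 microglial markers, 9 were in the table, with a summed level of 2569 to 3483 CPM. These markers did not move together after LPS, with Trem2 at -3.25, Csf1r at -2.39 and Adgre1 at 1.22. Aif1 was low in all groups, at 0.882 to 2.07 CPM. The summed astrocyte markers reached at most 0.471 CPM, the neuronal markers 0.834 CPM and the oligodendrocyte markers 8.18 CPM. Medium replicate 3 stood apart from the other Medium libraries (chi-square per degree of freedom 30.1 and 26.6, against 4.18 between those). The 10 most abundant genes took 13.2% to 14.9% of counts in Medium, 8.82% to 9.03% in Control and 10.3% to 10.9% in BHB, so the scaling of Medium against the other groups bears on every member. In bulk RNA, fewer cells that express a gene and less of its RNA per cell cannot be told apart.

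Of the 72 members, 70 passed the filter. Cox4i2, the hypoxia-responsive isoform of cytochrome c oxidase subunit 4, had 3 to 13 counts per library, and Ndufa4l2 had 0 to 4. Measured per kilobase of exon, Cox4i1 had the highest level of all members in every group, at a mean of 277 CPM per kb in Control, 305 in Medium and 302 in BHB. The median subunit level in Control was 26.1 CPM per kb for complex I, 69.7 for complex II, 56.7 for complex III, 52.6 for complex IV and 25.2 for complex V. The Ndufaf factors lay far lower, with a median of 4.75 CPM per kb in Control, 4.66 in Medium and 5.92 in BHB. Within complex I, Ndufb2 had the lowest level per kb in every group, at 1.40 CPM per kb in Control. Exon length here is the union of annotated exons, 5628 bases for Ndufb2 and 659 for Ndufb6. In CPM, Ndufb6 was lower than Ndufb2 in Medium (means 10.9 and 12.5). Ndufb2 was lower in Control (7.90 against 8.63) and in BHB (8.99 against 10.6). A union can exceed the transcript present, so levels per kb and their medians by complex depend on the annotation.

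After LPS, most subunit transcripts stood higher relative to the rest of the transcriptome, and a small set stood lower. Of the 70 tested members, 41 were higher after LPS than in Control and 9 were lower, where 72.6% of all tested genes were called, 36.3% higher and 36.3% lower. The median log2 fold change was 0.26 over the members and -0.01 over all tested genes. With library sizes alone in place of TMM, 18 members were higher and 22 lower, and the median fell to -0.01 while that of all genes fell to -0.27, so the members' distance from the median gene stayed at 0.26. The preponderance of higher calls is therefore a statement relative to other genes and depends on the scaling. Without Medium replicate 3, 47 members were higher and 9 lower. The shares of all genes called in these alternatives are not given, so these counts do not set members apart from other genes.

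By complex, the median log2 fold change of Medium against Control was 0.26 for complex I, 0.28 for complex II, 0.19 for complex III, 0.32 for complex IV and 0.47 for complex V, against -0.03 for the Ndufaf factors. Higher and lower calls numbered 20 and 4 of 34 in complex I, 3 and 1 of 4 in complex II, 6 and 1 of 9 in complex III, 7 and 3 of 13 in complex IV, and 2 and 0 of 2 in complex V. Among the 8 Ndufaf factors, 3 were higher and none was lower. Of all tested genes, 36.3% were called higher and 36.3% lower. The higher calls of the Ndufaf factors (37.5%) were thus near the share of all genes. With library sizes alone the medians were -0.01, 0.01, -0.08, 0.05 and 0.20 for complexes I to V and -0.30 for Ndufaf, which turned the direction of complexes I and III and kept the order of subunits above assembly factors.

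**Figure D1:**
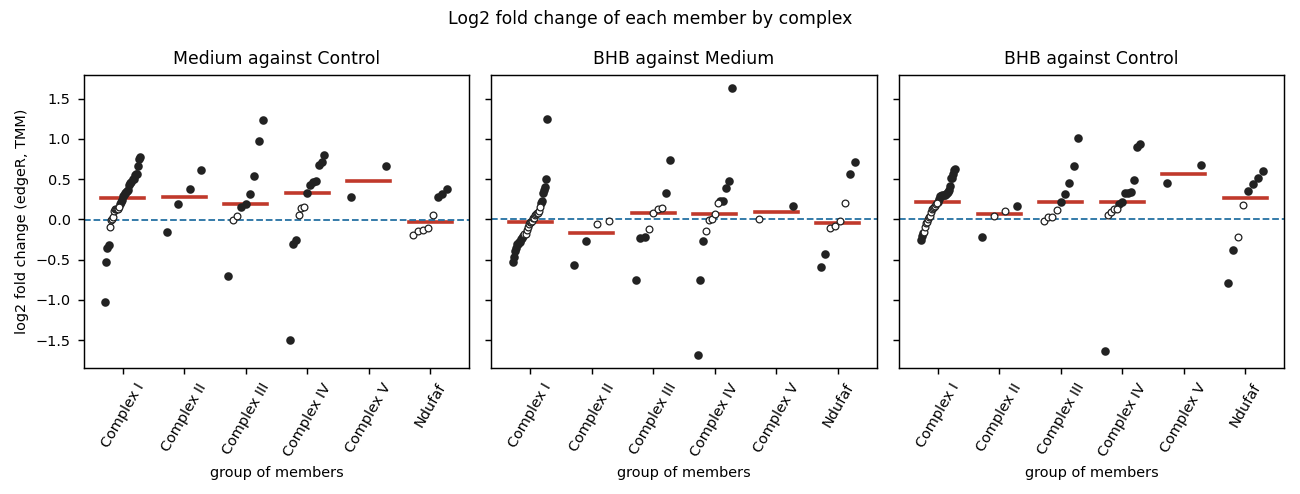
Log2 fold change (y axis, edgeR with TMM) of each tested member by complex (x axis) in the 3 comparisons. Filled points were called at an adjusted p of 0.05 and open points were not, red bars are medians and the dashed line is the median of all tested genes. In Medium against Control the medians of complexes I to V lie at 0.19 to 0.47, and that of Ndufaf at -0.03.

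BHB on top of LPS did not move the subunits together. Of the 70 members, 17 were higher in BHB than in Medium and 21 lower, where 66.9% of all tested genes were called, 33.2% higher and 33.6% lower. Their median log2 fold change was -0.02. Complex I had 7 higher and 11 lower calls, complex II 0 and 2, complex III 2 and 3, complex IV 5 and 3, complex V 1 and 0, and Ndufaf 2 and 2. With library sizes alone, 27 members were higher and 11 lower, around an all-gene median of 0.13. Without Medium replicate 3, 16 were higher and 26 lower. For these alternatives too, the shares of all genes called are not given, and the counts do not set members apart.

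Compared with Control cells, BHB cells still carried higher subunit transcripts. In BHB against Control, 37 members were higher and 7 lower, where 66.7% of all tested genes were called, 33.4% higher and 33.3% lower. The median was 0.21 over the members, and by complex it was 0.21, 0.07, 0.22, 0.22 and 0.56 for complexes I to V and 0.26 for Ndufaf. With library sizes alone, 24 members were higher and 11 lower, with a median of 0.07 against -0.14 for all genes, and the median of complex II turned to -0.07. The share of all genes called with library sizes alone is not given beside these counts. The 3 comparisons share their groups in pairs, so their values are given side by side and are not independent.

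Read in this order (Medium against Control, BHB against Medium, BHB against Control), 20 members were higher, without a call and higher, the most frequent pattern. A further 9 were higher, lower and without a call, 6 were higher, lower and higher, and 5 were lower, higher and without a call. Cox6b1, Cox7b and Atp5pb were higher in all 3 comparisons. Ndufv3 and Ndufa4 were lower, higher and higher. These patterns were counted over the members alone. Without the same counts over all tested genes, they do not set the members apart from other genes. The groups did not overlap for 49 members in Medium against Control, where the same held for 75.1% of all tested genes, for 33 in BHB against Medium (68% of all genes) and for 54 in BHB against Control (75.3%). No comparison called Ndufv1, Ndufs7, Ndufa5, Ndufb5, Uqcrc1, Cox4i1 or Ndufaf6.

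**Figure D2:**
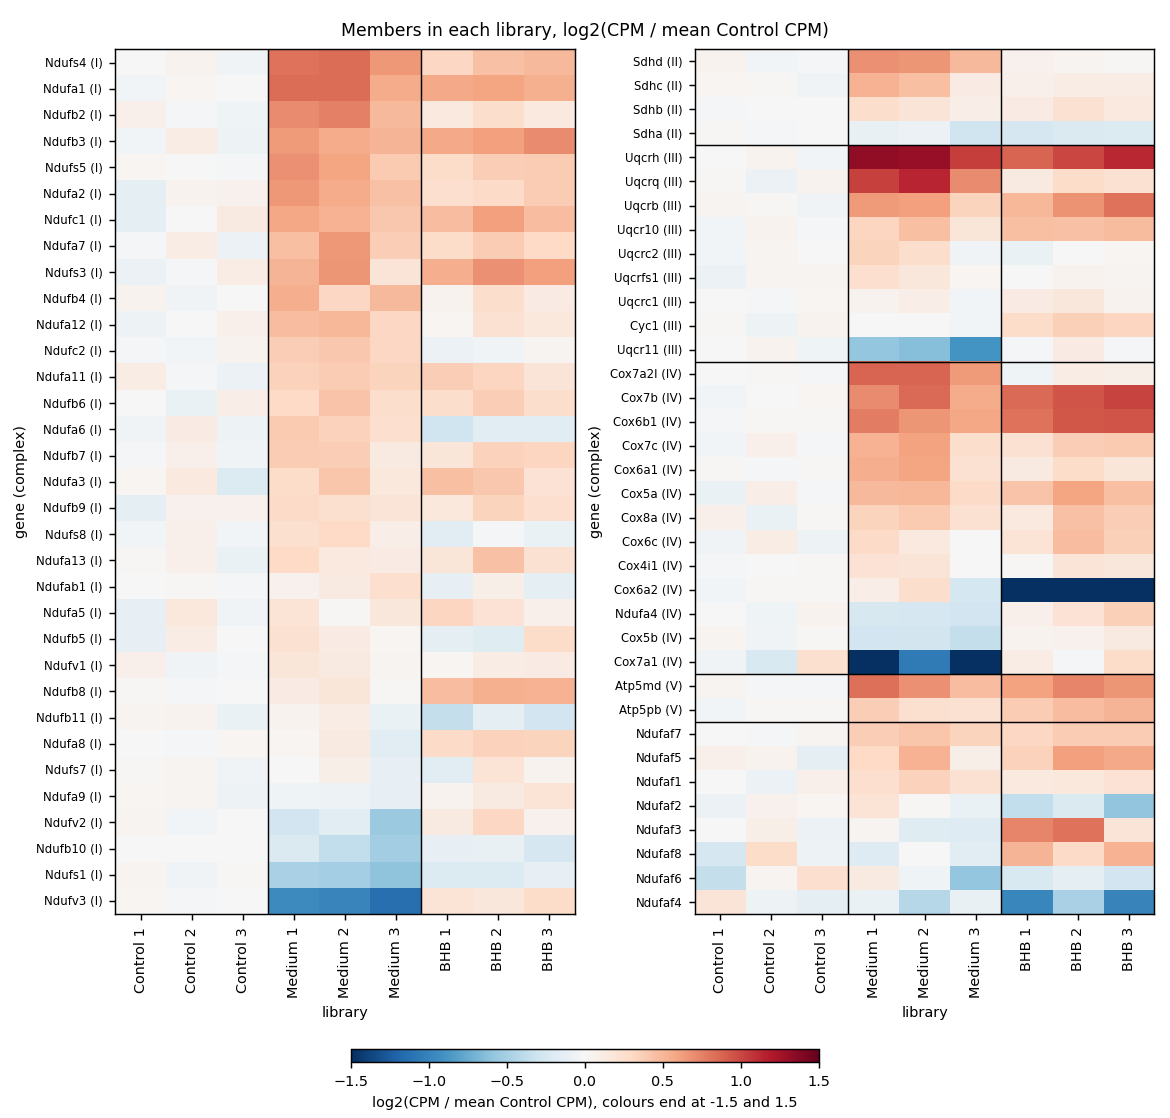
Log2 ratio of CPM in each library (x axis) to the mean of the Control libraries, for 69 of the 70 tested members (y axis, complex in brackets), sorted within each complex by the change in Medium against Control. Most rows are red in Medium, a few such as Ndufv3, Ndufs1 and Uqcr11 are blue in Medium and paler in BHB, and Cox6a2 is dark blue in all BHB libraries.

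Changes of at least 2-fold were rare among the members. Uqcrh was the member that rose that far after LPS, and Ndufv3 and Cox7a1 fell that far, where 18.7% of all genes passed both the call and this fold, 7.74% higher and 11% lower. Between Medium and BHB, Ndufv3 and Cox7a1 rose at least 2-fold and Cox6a2 fell that far, against 12.7% of all genes, 7.74% higher and 4.99% lower. Between Control and BHB these were Uqcrh, which was higher, and Cox6a2, which was lower, against 13.3% of all genes, 6.72% higher and 6.55% lower.

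Ndufv3, Uqcr11, Cox7a2l and Sdhd were among the members that moved in opposite directions in the first 2 comparisons. Ndufv3, an accessory subunit of the NADH-oxidizing arm of complex I, read 54.6, 52.4 and 53.4 CPM in Control, 27.5, 26.8 and 24.5 in Medium, then 61.5, 60.2 and 64.8 in BHB. All Medium libraries lay below all others, and all BHB libraries lay above Control. It fell by 1.02 after LPS (SE 0.067, edgeR adjusted p = 5.05e-09), rose by 1.24 with BHB (SE 0.067, adjusted p = 1.34e-09) and ended 0.22 above Control (SE 0.064, adjusted p = 0.00792), a last call that was lost with library sizes alone.

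Uqcr11, a small subunit of complex III, had 21.1, 21.6 and 20.0 CPM in Control, 14, 13.4 and 11.2 in Medium, then 20.7, 22.8 and 20.6 in BHB. Medium was separate from both other groups, and Control and BHB overlapped. The log2 fold change was -0.70 after LPS (SE 0.10, edgeR adjusted p = 1.74e-05) and 0.73 with BHB (SE 0.10, adjusted p = 1.53e-05). Against Control, BHB differed by 0.03 (SE 0.096, adjusted p = 0.801).

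Cox7a2l encodes a relative of the Cox7a subunits that joins complexes III and IV into supercomplexes. Its Control libraries read 253, 257 and 252 CPM, the Medium libraries 466, 464 and 396, and the BHB libraries 242, 273 and 270.4. Medium stood apart above the others, which overlapped. It rose 1.74-fold after LPS (log2 0.80, SE 0.070, edgeR adjusted p = 1.02e-07) and fell by 0.76 with BHB (SE 0.069, adjusted p = 3.03e-07).

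Sdhd, a membrane anchor of complex II, showed the same order, with 119.6, 112 and 114 CPM in Control, 186, 183 and 162 in Medium, then 121, 119 and 117 in BHB. After LPS it rose by 0.62 (SE 0.059, edgeR adjusted p = 3.22e-07) and with BHB it fell by 0.57 (SE 0.059, adjusted p = 9.81e-07). BHB and Control overlapped, with a difference of 0.04 (SE 0.060, adjusted p = 0.557). The first 2 calls of each of these 4 genes held in all 16 alternatives.

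**Figure D3:**
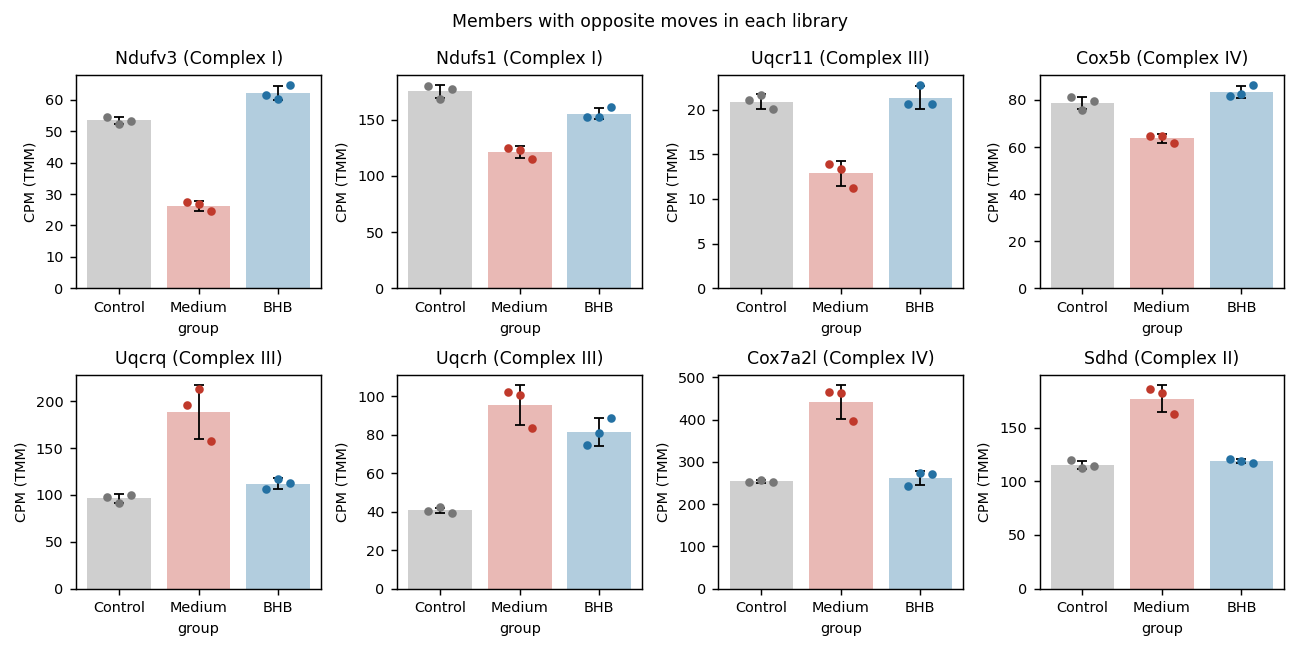
CPM (y axis, TMM-scaled) of 8 members in each group (x axis). Bars are means, error bars the SD over 3 libraries, and points single libraries. Ndufv3, Ndufs1, Uqcr11 and Cox5b are lowest in Medium, while Uqcrq, Uqcrh, Cox7a2l and Sdhd are highest in Medium.

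The promoters of these 4 genes are shown because their transcripts moved in opposite directions. Each runs from 250 bases before to 50 bases after the RefSeq transcription start on GRCm38.p6, 5′ to 3′ on the gene's strand. Ndufv3 lies at chr17:31519865-31520164 on the plus strand. The other windows are on the minus strand, Uqcr11 at chr10:80406772-80407071, Cox7a2l at chr17:83514284-83514583 and Sdhd at chr9:50603800-50604099. Capitals mark matches, on either strand, to the letters GCGCATG (a core of the NRF1 site), CCGGAAG (ETS factors such as GABPA), AAGATGG (YY1), and ACGTG or GCGTG (hypoxia response element cores).
Ndufv3: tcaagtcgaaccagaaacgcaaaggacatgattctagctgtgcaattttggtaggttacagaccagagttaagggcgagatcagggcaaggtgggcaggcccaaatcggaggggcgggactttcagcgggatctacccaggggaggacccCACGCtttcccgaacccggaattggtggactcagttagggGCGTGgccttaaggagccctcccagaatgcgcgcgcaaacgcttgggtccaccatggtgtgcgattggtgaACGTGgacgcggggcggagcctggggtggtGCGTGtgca
Uqcr11: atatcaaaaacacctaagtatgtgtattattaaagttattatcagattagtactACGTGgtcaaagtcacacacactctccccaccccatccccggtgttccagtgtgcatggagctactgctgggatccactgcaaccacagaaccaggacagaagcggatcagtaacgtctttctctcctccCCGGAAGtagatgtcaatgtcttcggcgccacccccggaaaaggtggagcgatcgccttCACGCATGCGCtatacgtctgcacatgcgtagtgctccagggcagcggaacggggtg
Cox7a2l: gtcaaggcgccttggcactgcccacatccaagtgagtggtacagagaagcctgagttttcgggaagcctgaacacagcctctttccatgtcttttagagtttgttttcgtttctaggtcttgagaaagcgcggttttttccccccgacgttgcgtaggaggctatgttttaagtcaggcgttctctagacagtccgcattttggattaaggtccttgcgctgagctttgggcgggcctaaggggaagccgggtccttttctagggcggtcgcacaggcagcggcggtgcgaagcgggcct
Sdhd: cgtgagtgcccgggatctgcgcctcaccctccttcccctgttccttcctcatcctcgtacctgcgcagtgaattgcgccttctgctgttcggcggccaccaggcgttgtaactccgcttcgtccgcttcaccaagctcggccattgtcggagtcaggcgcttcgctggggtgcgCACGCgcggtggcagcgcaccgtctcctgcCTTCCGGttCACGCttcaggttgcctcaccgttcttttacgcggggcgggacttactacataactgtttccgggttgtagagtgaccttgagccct

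The Uqcr11 window held an ETS match, an ACGTG match and, next to its start, an NRF1 match on the minus strand that overlaps a GCGTG match. The Sdhd window held an ETS match and a pair of GCGTG matches, the Ndufv3 window 3 GCGTG matches and 1 ACGTG match, and the Cox7a2l window none of the letters searched. A promoter was found for 57 of the 72 members. The NRF1 letters occurred in 12 of these (21.1%), against 7.73% of the 9812 genes of the count table with a promoter. The ETS letters occurred in 24.6% against 19.1%, the YY1 letters in 15.8% against 8.26%, ACGTG in 21.1% against 28.4% and GCGTG in 56.1% against 54.5%. These shares describe letters in a window and were not tested.

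Of the 27 accessory subunits of complex I, 18 were higher after LPS and 2 lower (median 0.33), and of its 7 core subunits 2 were higher and 2 lower (median 0.12), where 36.3% of all tested genes were called in each direction. With BHB against Medium, 5 accessory subunits were higher and 10 lower (median -0.05), and 2 core subunits were higher and 1 lower (median 0.05), where 33.2% of all genes were higher and 33.6% lower. Core and accessory subunits were not tested against each other.

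Among the core subunits, Ndufs1, which holds iron-sulfur clusters of the NADH-oxidizing arm, read 180.0, 168 and 177 CPM in Control, 125, 123 and 115 in Medium, then 152, 152 and 161 in BHB. The groups did not overlap, with BHB between the others. It fell by 0.53 after LPS (SE 0.055, edgeR adjusted p = 6.4e-07), rose by 0.36 with BHB (SE 0.055, adjusted p = 4.54e-05) and was 0.17 lower in BHB than in Control on the log2 scale (-0.17, adjusted p = 0.0115), a last call that was lost without Control replicate 1. Ndufv2, which carries an iron-sulfur cluster beside the flavin, had 65.5, 61.9 and 63.7 CPM in Control, 52.2, 57.1 and 43.2 in Medium, then 69.7, 78.9 and 66.4 in BHB. Medium lay below both other groups, at a log2 fold change of -0.32 (SE 0.092, edgeR adjusted p = 0.00545) against Control, and BHB was 0.50 above Medium (SE 0.092, adjusted p = 0.000255).

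Ndufv1, which binds FMN and NADH, read 89.7, 81.9 and 83.8 CPM in Control, 96.8, 93.6 and 87.4 in Medium, then 87.0, 92.2 and 92.5 in BHB. The groups overlapped, and the change after LPS was 0.12 (edgeR adjusted p = 0.0812) with TMM and -0.15 with library sizes alone. The Ndufv3 count per Ndufv1 count, a ratio that does not depend on scaling, was 0.609 to 0.640 in Control, 0.280 to 0.287 in Medium and 0.653 to 0.707 in BHB. Its groups did not overlap (exact permutation test, 2-sided p = 0.1, the smallest that 3 against 3 libraries allow).

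Ndufs7, which holds the last iron-sulfur cluster before ubiquinone, had 30.1, 30.7 and 28.7 CPM in Control, 30.0, 31.7 and 27.3 in Medium, then 26.6, 34.4 and 30.8 in BHB. Its groups overlapped and no comparison was called, with a change after LPS of -0.01 (SE 0.095).

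Ndufs3, a core subunit that carries no cofactor, read 49.1, 51.4 and 56.6 CPM in Control, 74.5, 82.8 and 60.1 in Medium, then 76.5, 84.1 and 80.3 in BHB. Both LPS groups lay above Control and overlapped each other. It rose by 0.47 after LPS (SE 0.097, edgeR adjusted p = 0.000548, not called with library sizes alone) and stood 0.62 above Control in BHB (SE 0.097, adjusted p = 5.72e-05). Ndufs8, which holds iron-sulfur clusters on the way to ubiquinone, read 53.8, 58.1 and 53.5 CPM in Control, 65.4, 68.0 and 59.1 in Medium, then 49.3, 54.6 and 51.5 in BHB. Medium was above both other groups, by 0.22 over Control (SE 0.070, edgeR adjusted p = 0.0118), a call that was lost without Medium replicate 2 and turned to -0.05 with library sizes alone. BHB fell by 0.31 from Medium (SE 0.070, adjusted p = 0.00135).

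Of the accessory subunits, Ndufs4, whose loss in humans causes Leigh syndrome, had the largest rise after LPS in complex I. It read 44.6, 46.1 and 43.0 CPM in Control, 78.7, 80.0 and 70.2 in Medium, then 55.5, 60.4 and 62.3 in BHB. The groups did not overlap. It rose 1.71-fold after LPS (log2 0.77, SE 0.070, edgeR adjusted p = 1.57e-07), fell by 0.36 with BHB (SE 0.069, adjusted p = 0.000332) and remained 0.41 above Control (SE 0.070, adjusted p = 0.000115).

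Ndufa6, which binds the mitochondrial acyl carrier protein, had the lowest fold change of BHB against Medium in complex I. Its levels were 44.4, 50.3 and 43.8 CPM in Control, 60.6, 58.5 and 54.8 in Medium, then 37.7, 41.1 and 41.2 in BHB. BHB was the lowest group and Medium the highest, with no overlap. It rose by 0.33 after LPS (SE 0.073, edgeR adjusted p = 0.000983, not called with library sizes alone) and fell by 0.54 with BHB (SE 0.073, adjusted p = 1.64e-05). BHB also lay below Control (-0.21, adjusted p = 0.0218), a call that was lost without Control replicate 2 or BHB replicate 1.

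Ndufb3 and Ndufb11, subunits of the membrane arm, ended at opposite ends of complex I in BHB against Control. Ndufb3 read 38.6, 42.8 and 37.8 CPM in Control, 61.9, 58.2 and 56.7 in Medium, then 58.8, 60.8 and 64.8 in BHB. It was 1.48-fold higher after LPS (edgeR adjusted p = 4.12e-06) and 1.55-fold higher in BHB than in Control (log2 0.63, SE 0.070, adjusted p = 1.98e-06), and Medium and BHB overlapped. Ndufb11 read 56.4, 56.9 and 50.9 CPM in Control, 56.8, 59.1 and 51.3 in Medium, then 42.7, 49.4 and 45.0 in BHB. BHB was below both other groups, by -0.29 from Medium (SE 0.077, edgeR adjusted p = 0.00468, lost at -0.15 with library sizes alone) and by -0.26 from Control (SE 0.077, adjusted p = 0.00837). The change after LPS was 0.03 with TMM and -0.24 with library sizes alone. Exons of Ndufb11 share 12.9% of their length with Rbm10 on the other strand, and the sources used here do not say whether reads were counted by strand.

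Complex II oxidizes succinate and has no subunit encoded in mitochondrial DNA. Its 4 transcripts did not move as a block. Sdha, the flavoprotein, read 422, 411 and 418 CPM in Control, 386, 393 and 339 in Medium, then 349.8, 359 and 362 in BHB. Both LPS groups lay below Control. It fell by 0.16 after LPS (SE 0.060, edgeR adjusted p = 0.0249, lost when any 1 Control library was left out) and stood 0.22 lower in BHB than in Control (-0.22, SE 0.060, adjusted p = 0.0045).

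Sdhb, the iron-sulfur protein, had 101, 102 and 103 CPM in Control, 123, 117 and 109 in Medium, then 111, 119 and 113 in BHB. It was 0.19 higher after LPS (SE 0.057, edgeR adjusted p = 0.00789), which turned to -0.08 with library sizes alone, and BHB did not differ detectably from Medium (-0.02, SE 0.057). BHB exceeded Control by 0.17 (adjusted p = 0.0177), a call lost without Control replicate 1 or BHB replicate 2, and at 0.03 with library sizes alone. Sdhc, the partner of Sdhd in the membrane anchor, read 99.7, 98.5 and 94.2 CPM in Control, 139.7, 133 and 106 in Medium, then 103, 105 and 106 in BHB. Medium was the highest group, BHB lay just under its lowest library and above Control, and no groups overlapped. Sdhc rose by 0.38 after LPS (SE 0.081, edgeR adjusted p = 0.000747) and fell by 0.28 with BHB (SE 0.081, adjusted p = 0.00772), calls that were both lost with library sizes alone. The count of Sdhd per count of Sdhb was 1.10 to 1.18 in Control, 1.49 to 1.56 in Medium and 0.995 to 1.09 in BHB (exact permutation test, p = 0.1 in each comparison).

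Complex III carries electrons from ubiquinol to cytochrome c through cytochrome b, cytochrome c1 and the Rieske protein. The widest moves were in its small subunits. Uqcrh, the hinge protein beside cytochrome c1, read 40.3, 42.2 and 39.3 CPM in Control, 102, 101 and 83.5 in Medium, then 74.7, 81.1 and 89.0 in BHB. All LPS-treated libraries exceeded all Control libraries, while Medium and BHB overlapped. The rise after LPS was 2.35-fold (log2 1.23, SE 0.085, edgeR adjusted p = 8.9e-09), and BHB stood 2.01-fold above Control (log2 1.01, SE 0.085, adjusted p = 1.23e-07). The difference of BHB from Medium, -0.23 (SE 0.082, adjusted p = 0.0247), was lost without Medium replicate 1 or 2 or BHB replicate 1 or 2, with the compared groups alone and with library sizes alone.

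Uqcrq, a small subunit of the membrane domain, had 97.8, 91.0 and 100.4 CPM in Control, 196, 213 and 157 in Medium, then 106, 117 and 113 in BHB. The groups did not overlap, with Medium highest. It rose 1.96-fold after LPS (log2 0.97, SE 0.090, edgeR adjusted p = 2.08e-07) and fell by 0.75 with BHB (SE 0.089, adjusted p = 3.94e-06). BHB exceeded Control by 0.22 (adjusted p = 0.0443), a call that was lost in 7 of 16 alternatives, among them the omission of any 1 Control library and of BHB replicate 2 or 3.

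Within complex III, Uqcr10 gives a partner for ratios that need no scaling. Uqcrq per Uqcr10 was 1.43 ± 0.115 in Control, 2.24 ± 0.149 in Medium and 1.22 ± 0.0662 in BHB (SD, n = 3 libraries). Uqcr11 per Uqcr10 moved the other way after LPS, from 0.311 ± 0.0101 to 0.153 ± 0.0111, and was 0.232 ± 0.0165 in BHB. Uqcrh per Uqcrc1 was 0.162 ± 0.00883, 0.370 ± 0.0245 and 0.300 ± 0.0364 in the same order. None of these ratios overlapped between groups (exact permutation test, p = 0.1 in each comparison), and the pairs were chosen after their values were seen.

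Cyc1, cytochrome c1, read 119, 111 and 122 CPM in Control, 117, 117 and 114 in Medium, then 142, 151 and 146 in BHB. BHB lay above both other groups, which overlapped. It did not pass the test after LPS (-0.01, SE 0.053), rose by 0.33 with BHB (SE 0.053, edgeR adjusted p = 7.16e-05) and was 0.32 above Control (adjusted p = 9.79e-05). Uqcrfs1, the Rieske iron-sulfur protein, had 121, 131 and 132 CPM in Control, 152, 144 and 130.4 in Medium, then 128, 133 and 131 in BHB. Groups overlapped in all 3 comparisons. Its call after LPS (0.15, SE 0.063, edgeR adjusted p = 0.0428) was lost in 8 of 16 alternatives, among them the omission of Control replicate 1 or 3, Medium replicate 1 or 2 or BHB replicate 2 or 3, and the direction turned to -0.12 with library sizes alone.

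The core proteins Uqcrc1 and Uqcrc2, relatives of mitochondrial processing peptidase, gave calls that were absent or weak. Uqcrc1 read 251, 246 and 256 CPM in Control, 261, 269 and 243 in Medium, then 273, 283 and 260.3 in BHB, with no call. Uqcrc2 read 163, 174 and 168 CPM in Control, 212, 202 and 163 in Medium, then 157, 168 and 172 in BHB. Medium replicate 3 lay at the Control level for Uqcrc2, and the groups overlapped. Its calls, 0.19 after LPS (SE 0.082, edgeR adjusted p = 0.0458) and -0.22 with BHB (adjusted p = 0.029), were lost in 10 and 6 of 16 alternatives, including Medium replicate 1 or 2 left out, and with library sizes alone the changes of Uqcrc1 and Uqcrc2 after LPS were -0.23 and -0.08. Exons of Uqcrc2 share 19.7% of their length with Pdzd9 on the other strand.

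Complex IV, cytochrome c oxidase, has tissue-specific isoforms of some nuclear subunits. Cox6a2, the isoform of subunit 6A known from heart and muscle, had 34.9, 36.3 and 36.2 CPM in Control, 38.3, 43.0 and 29.8 in Medium, then 11.3, 12.1 and 11.2 in BHB. Control and Medium overlapped and all BHB libraries lay far below. With BHB it fell to 0.311 of the Medium level (log2 -1.68, SE 0.11, edgeR adjusted p = 1.45e-08), and it was at 0.322 of the Control level (log2 -1.64, SE 0.11, adjusted p = 1.75e-08). Both calls held in all 16 alternatives. The change after LPS was 0.05 (SE 0.11, adjusted p = 0.698) with TMM and -0.23 with library sizes alone.

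Cox6a1, the general isoform, had 108, 104 and 108 CPM in Control, 156, 161 and 126 in Medium, then 117, 129 and 121 in BHB. It rose by 0.46 after LPS (SE 0.079, edgeR adjusted p = 0.000101) and fell by 0.27 with BHB (SE 0.079, adjusted p = 0.00757, lost with library sizes alone), and its call of 0.19 above Control (adjusted p = 0.0437) was lost in 6 of 16 alternatives, including any 1 Control library or BHB replicate 2 or 3 left out. Of the counts of both isoforms, Cox6a2 took 24.4%, 25.8% and 25.0% in Control, 19.7%, 21.1% and 19.2% in Medium, then 8.82%, 8.57% and 8.46% in BHB. The shares were successively lower in that order, with no overlap (exact permutation test, p = 0.1 in each comparison). Exons of Cox6a2 share 10.3% of their length with Itgad on the other strand, and Itgad was not analysed here.

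**Figure D4:**
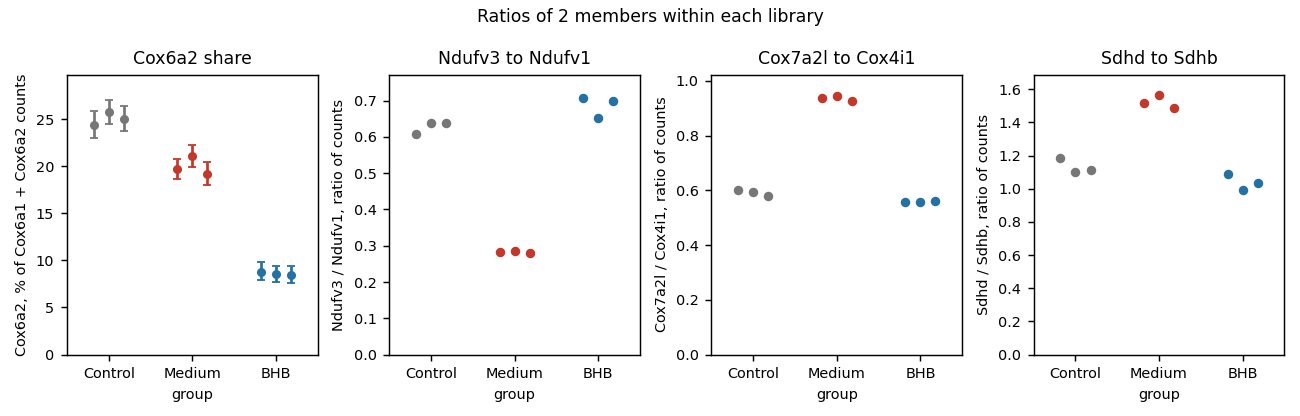
Share of Cox6a2 in the counts of Cox6a1 and Cox6a2 (left, percent, bars are exact 95% binomial intervals, which cover counting error only) and the ratio of counts of 3 pairs of members (y axes) in each library, by group (x axes). The Cox6a2 share is 24.4% to 25.8% in Control and 8.46% to 8.82% in BHB, and the Ndufv3 to Ndufv1 ratio is lowest in Medium at 0.280 to 0.287.

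Cox7a1, the muscle isoform of subunit 7A, was near the limit of detection, with 1.43, 1.27 and 1.77 CPM in Control, 0.485, 0.714 and 0.382 in Medium, then 1.62, 1.46 and 1.81 in BHB. Medium lay below both other groups. The log2 fold changes were -1.51 after LPS (SE 0.33, edgeR adjusted p = 0.000955) and 1.63 with BHB (SE 0.33, adjusted p = 0.000554). Cox4i2 had 3 to 13 counts a library and took 0.0221% to 0.0747% of the counts of Cox4i1 and Cox4i2 in Control, 0.0357% to 0.0427% in Medium and 0.0531% to 0.0979% in BHB. Its Medium and BHB libraries did not overlap (exact permutation test, 2-sided p = 0.1), while Control overlapped both. Ndufa4l2 had at most 4 counts a library, at most 0.369% of those of Ndufa4 and Ndufa4l2, and overlapped in all 3 comparisons.

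Cox4i1, the most abundant member per length, read 419.5, 432 and 435 CPM in Control, 497, 491 and 428 in Medium, then 436, 489 and 481 in BHB. No comparison was called, and the change after LPS was 0.14 (SE 0.067) with TMM and -0.13 with library sizes alone. The Cox7a2l count per Cox4i1 count was 0.579 to 0.602 in Control, 0.926 to 0.946 in Medium and 0.556 to 0.563 in BHB, without overlap (exact permutation test, p = 0.1 in each comparison). Exons of Cox4i1 share 9.94% of their length with Emc8 on the other strand.

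Cox5a and Cox5b, subunits on the matrix side, differed in direction after LPS. Cox5a read 46.1, 52.8 and 48.8 CPM in Control, 68.9, 69.3 and 60.1 in Medium, then 66.4, 73.9 and 67.1 in BHB. It rose by 0.42 after LPS (SE 0.076, edgeR adjusted p = 0.000152, lost with library sizes alone) and remained 0.49 above Control in BHB (SE 0.076, adjusted p = 5.05e-05). Cox5b read 81.0, 75.8 and 79.4 CPM in Control, 64.6, 64.9 and 61.6 in Medium, then 81.8, 82.4 and 86.5 in BHB. Its Medium libraries were below all others. Cox5b fell by 0.31 after LPS (SE 0.057, edgeR adjusted p = 0.000208) and rose by 0.39 with BHB (SE 0.057, adjusted p = 2.74e-05), calls that held in all 16 alternatives.

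Ndufa4 moved as Cox5b did, with 41.8, 39.8 and 43.3 CPM in Control, 35.2, 35 and 34.2 in Medium, then 43.9, 48.3 and 53.3 in BHB. No groups overlapped. After LPS it fell by 0.26 (SE 0.076, edgeR adjusted p = 0.00683) and with BHB it rose by 0.48 (SE 0.076, adjusted p = 6.24e-05). The call of 0.22 above Control (adjusted p = 0.0178) was lost without Control replicate 2, without BHB replicate 3 and with library sizes alone.

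Other subunits of complex IV rose and stayed high. Cox7b, a small membrane subunit, had 51.9, 53.5 and 54.6 CPM in Control, 87.1, 96.3 and 78.8 in Medium, then 95.9, 103 and 108 in BHB. All LPS-treated libraries lay above Control, by 1.64-fold in Medium (log2 0.71, SE 0.074, edgeR adjusted p = 7.24e-07) and 1.92-fold in BHB (log2 0.94, SE 0.074, adjusted p = 6.03e-08). The step from Medium to BHB, 0.23 (adjusted p = 0.0127), was lost without BHB replicate 3. Cox6b1, which joins the monomers of the enzyme, read 62.3, 64.2 and 64.2 CPM in Control, 108, 100.3 and 95.3 in Medium, then 112, 122 and 122 in BHB. Its groups did not overlap. It rose by 0.67 after LPS (SE 0.062), by a further 0.23 with BHB (SE 0.061) and by 0.90 in BHB against Control (SE 0.061), with edgeR adjusted p = 1.93e-07, 0.00426 and 1.49e-08. Cox8a, another small membrane subunit, had 81.5, 72.0 and 77.8 CPM in Control, 97.5, 101 and 90.1 in Medium, then 85.3, 105 and 99.3 in BHB, and exceeded Control by 0.32 in both Medium (edgeR adjusted p = 0.00187, lost with library sizes alone) and BHB (adjusted p = 0.00205).

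Both genes of complex V rose after LPS. Atp5pb, subunit b of the peripheral stalk, read 139, 145 and 144 CPM in Control, 184, 169 and 167 in Medium, then 185, 196 and 202 in BHB. Its groups did not overlap, and it rose by 0.28 after LPS (SE 0.056, edgeR adjusted p = 0.000409, lost with library sizes alone) and stood 0.45 above Control in BHB (SE 0.056, adjusted p = 6.84e-06). The step from Medium to BHB, 0.17 (adjusted p = 0.017), was lost without Medium replicate 2 or BHB replicate 3. Atp5md, the small membrane subunit also called DAPIT, had 44.7, 42.9 and 42.7 CPM in Control, 77.1, 70.1 and 59.7 in Medium, then 66.1, 72.1 and 68.9 in BHB. It was 1.59-fold higher after LPS (log2 0.67, SE 0.083, edgeR adjusted p = 4.32e-06) and 1.59-fold higher in BHB than in Control (SE 0.082, adjusted p = 5.62e-06), while BHB and Medium overlapped.

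The Ndufaf factors help to assemble complex I and are not part of the finished enzyme. Ndufaf4 and Ndufaf2 were lower with BHB. Ndufaf4, which works together with Ndufaf3, had 15.5, 12.9 and 12.3 CPM in Control, 12.7, 10.1 and 12.6 in Medium, then 6.88, 9.74 and 6.81 in BHB. Its BHB libraries lay below all others, by -0.60 from Medium (SE 0.16, edgeR adjusted p = 0.00384) and -0.79 from Control (SE 0.16, adjusted p = 0.000402). Ndufaf2, a paralog of the subunit Ndufa12, had 14.1, 15.6 and 15.2 CPM in Control, 17.3, 15.1 and 14 in Medium, then 11.6, 12.9 and 9.97 in BHB. It fell by 0.43 with BHB (SE 0.12, edgeR adjusted p = 0.0051) and was lower than Control (-0.38, adjusted p = 0.0102, lost without BHB replicate 3). A non-coding gene on the other strand covers 65.6% of the Ndufaf2 exons, so its reads could not be told apart if strand was not used.

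Ndufaf3 and Ndufaf8 were higher with BHB. Ndufaf3 read 6.82, 7.27 and 6.46 CPM in Control, 7.06, 6.04 and 5.99 in Medium, then 11.4, 12 and 7.83 in BHB. All BHB libraries exceeded the others, and the log2 fold changes were 0.71 against Medium (SE 0.16, edgeR adjusted p = 0.00133) and 0.61 against Control (SE 0.16, adjusted p = 0.00384). Ndufaf8 read 3.14, 4.53 and 3.54 CPM in Control, 3.25, 3.74 and 3.32 in Medium, then 5.34, 4.55 and 5.36 in BHB. It rose by 0.56 with BHB (SE 0.18, edgeR adjusted p = 0.0142), and its call against Control (0.44, adjusted p = 0.0454) was lost in 8 of 16 alternatives, including Control replicate 1 or 3, Medium replicate 1 or BHB replicate 1 or 3 left out.

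Ndufaf7, a methyltransferase, had 31.0, 30.4 and 31.9 CPM in Control, 40.2, 41.6 and 39.2 in Medium, then 38.5, 40.4 and 40.4 in BHB. It rose by 0.37 after LPS (SE 0.064, edgeR adjusted p = 9.54e-05, lost with library sizes alone) and stood 0.35 above Control in BHB (adjusted p = 0.000193). Ndufaf1, a partner of Ecsit in assembly of the membrane arm, had 20.7, 19.5 and 21.7 CPM in Control, 24.6, 26.3 and 24.2 in Medium, then 22.9, 23.0 and 23.9 in BHB, with a rise of 0.28 after LPS (SE 0.080, edgeR adjusted p = 0.0059, lost with library sizes alone). Both stood in Medium above every Control library.

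Ndufaf5, which hydroxylates Ndufs7, had 10.9, 10.7 and 9.38 CPM in Control, 12.7, 14.9 and 11.0 in Medium, then 13.2, 15.9 and 15.4 in BHB. Its call after LPS (0.31, edgeR adjusted p = 0.0391) was lost in 6 of 16 alternatives, including Control replicate 2 or 3 or Medium replicate 1 or 2 left out, and BHB exceeded Control by 0.52 (SE 0.13, adjusted p = 0.00225). Ndufaf6 had 3.57, 4.69 and 5.45 CPM in Control, 5.02, 4.37 and 3.05 in Medium, then 3.90, 4.12 and 3.73 in BHB, with overlapping groups and no call. Set beside the subunits, the Ndufaf genes thus had 3 higher and 0 lower of 8 after LPS against 38 and 9 of 62. Among all tested genes, 36.3% were called in each direction. With BHB against Medium the calls were 2 and 2 of 8 against 15 and 19 of 62 (33.2% and 33.6% of all genes). In BHB against Control they were 4 and 2 of 8 against 33 and 5 of 62 (33.4% and 33.3%). These differences were not tested. The levels per kilobase of the Ndufaf genes were lower, as given above, and the part of level in these differences was not tested.

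Of 41 tested assembly factors outside the Ndufaf family, 12 were higher and 11 lower after LPS (median 0.07), where 36.3% of all tested genes were called in each direction. With BHB against Medium 8 were higher and 9 lower (median -0.03), against 33.2% and 33.6% of all genes, and in BHB against Control 12 and 8 (median 0.01), against 33.4% and 33.3%. Dmac1, an assembly factor of the distal membrane arm of complex I, was at 7.90 to 8.38 CPM in Control, 19.1 to 20.5 in Medium and 7.62 to 9.55 in BHB (log2 1.27 after LPS and -1.16 with BHB, edgeR adjusted p = 1e-07 and 3.85e-07). Ecsit, another complex I assembly factor that also takes part in Toll-like receptor signalling, fell by 0.70 after LPS (SE 0.10, edgeR adjusted p = 2.63e-05), rose with BHB by 1.04 (SE 0.10, adjusted p = 6.44e-07) and ended 0.34 above Control (adjusted p = 0.0076). The copper chaperone Cox17 and the complex IV factor Cox14 rose after LPS by 1.25 and 1.02, and Cox17 stayed 0.91 above Control in BHB (edgeR adjusted p = 1.24e-09, 1.21e-07 and 5.91e-08). Lyrm7, a chaperone of the Rieske protein, fell by 1.62 after LPS (SE 0.21, edgeR adjusted p = 6.3e-06) and rose by 0.88 with BHB (adjusted p = 0.00221). Cox11, which takes part in copper delivery, rose by 0.81 after LPS (SE 0.20, edgeR adjusted p = 0.00238) and fell by 0.73 with BHB (SE 0.20, adjusted p = 0.00534), to 0.08 from Control (adjusted p = 0.751).

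Of 20 tested genes for expression of mitochondrial DNA and nuclear regulators of the chain, 6 were higher and 9 lower after LPS (median -0.10), 5 and 9 with BHB against Medium (median -0.23), and 3 and 10 in BHB against Control (median -0.26). Among all tested genes, the shares called higher and lower were 36.3% and 36.3%, 33.2% and 33.6%, and 33.4% and 33.3% in the same order. Lrpprc, which stabilizes mitochondrial mRNA, was at 175 to 183 CPM in Control, 52.1 to 61.1 in Medium and 122 to 129 in BHB (log2 -1.70 after LPS and 1.18 with BHB, edgeR adjusted p = 1.92e-11 and 1.68e-09). Twnk, the helicase of mitochondrial DNA, was lower than Control in Medium (-1.65, SE 0.18, edgeR adjusted p = 1.46e-06) and in BHB (-1.05, SE 0.18, adjusted p = 0.000119). The coactivator gene Ppargc1b was 0.36 higher after LPS (edgeR adjusted p = 0.00586) and fell by 1.21 with BHB (SE 0.11, adjusted p = 1.92e-07). Pprc1, a related coactivator, and the transcription factor gene Yy1 were lower in BHB than in Control, by -1.48 and -0.90 (edgeR adjusted p = 3.47e-10 and 2.96e-09).

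The carrier Cycs, cytochrome c, stood with the subunits that rose and stayed high, at 66.5 to 72.7 CPM in Control, 109.7 to 121 in Medium and 120.2 to 132 in BHB (BHB against Control 0.87, SE 0.061, edgeR adjusted p = 1.7e-08). Higd1a, a hypoxia-inducible protein that binds complex IV, went another way. It read 20.5 to 24.8 CPM in Control, 16.4 to 18.1 in Medium and 64.3 to 76.1 in BHB, a rise of 2.06 over Medium (SE 0.093, edgeR adjusted p = 2.22e-10) and of 1.68 over Control (SE 0.090, adjusted p = 1.26e-09).

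Members differ from other genes in length and abundance, and values that move with these are given beside the result. The median exon length was 1559.5 bases for the tested members and 4579 bases for other genes, and 52 of the 70 members lay in the shortest of 5 length classes of equal size. Other genes of that class had median log2 fold changes of 0.03 after LPS, 0.08 with BHB against Medium and 0.11 in BHB against Control. The most abundant of 5 abundance classes of other genes had 0.15, -0.04 and 0.11, against 0.26, -0.02 and 0.21 for the members. That class held 15 of the 70 members. From the least abundant up, the other classes held 4, 14, 14 and 23 members. Other genes of those classes had medians of -0.32, -0.10, 0.0003 and 0.07 after LPS. The part of length and abundance in the members' values was not tested. The mean log2 level of the 62 subunits relative to Control was 0.28, 0.29 and 0.10 in Medium replicates 1, 2 and 3, and 0.15, 0.25 and 0.23 in the BHB libraries.

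**Figure D5:**
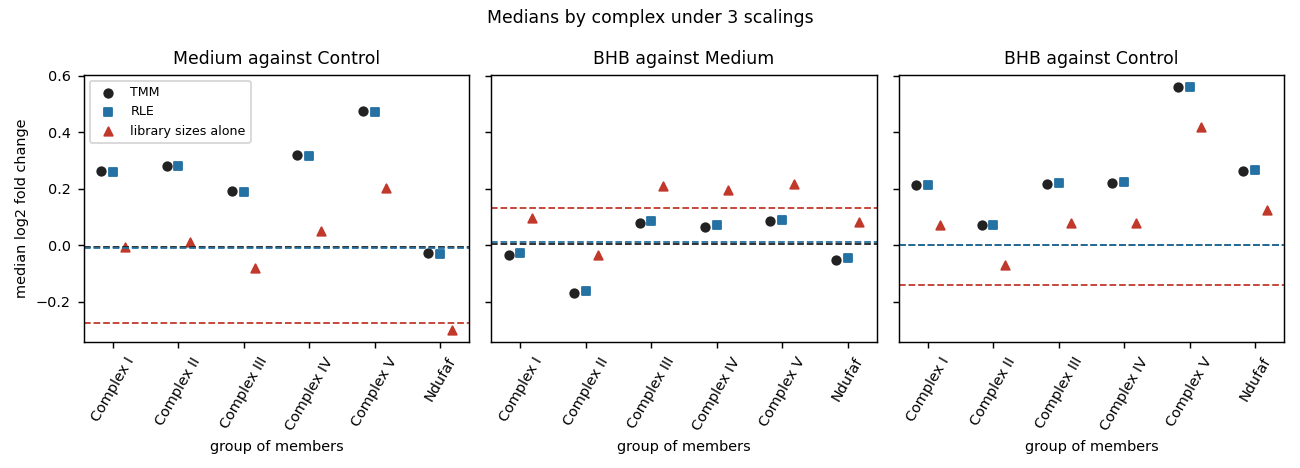
Median log2 fold change (y axis) of each group of members (x axis) with TMM, RLE factors and library sizes alone in the 3 comparisons. Dashed lines are the medians of all tested genes under the same scaling. In Medium against Control, library sizes alone move the all-gene median to -0.27 and the complexes with it, and the distance between them stays.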

How the data were processed

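The authors deposited whole-number counts per gene symbol from mRNA sequencing of 9 BV-2 libraries, not normalized and not pooled. For trimming, quality control, strand-specific alignment and assembly, the methods name Skewer, FastQC 0.11.2, STAR 2.7.10a (GRCm38, GENCODE M21) and StringTie 2.1.4, but the notes with the submission list Trimmomatic, FastQC 0.11.5, HISAT2 and StringTie. No source used here states how alignments became counts. Groups and replicate numbers come from the sample titles.

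Counts were filtered by filterByExpr, scaled by TMM and tested in R 4.3.3 with edgeR 4.0.16 (glmQLFit, glmQLFTest), with all 9 libraries in the model, on code tested on simulated data. SE is the log2 fold change over the root of F. Shares within a library carry exact binomial intervals. CPM per kb uses GENCODE M21 exon unions, found for Atp5pb and Atp5md by older symbols. Promoters are from RefSeq (GRCm38.p6). Alternatives were DESeq2 1.42.0, RLE, library sizes alone, no filter, at least 10 counts in every library, 2 groups only, a replicate block and each library left out.

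Members and lists were chosen with earlier results of these data known. Named members are the highest and lowest fold change per complex and comparison, all complex II, catalytic core, isoform and Ndufaf genes, and the 3 highest and 3 lowest called other genes. Cox6b1, and the pairs in ratios other than isoforms, were named after their values were seen. 1 further member is not reported here.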

Additional observations from a re-analysis of the deposited data

How the results depend on the processing

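Counts of called members stayed within 1.5 times in every alternative, with 43 to 56 called after LPS, 32 to 42 with BHB against Medium and 38 to 51 in BHB against Control when 1 library was left out. Shares of all genes called in the alternatives are not given, so these counts describe the members alone. Of the calls, 26 of 50, 25 of 38 and 28 of 44 held in all alternatives. The replicate numbers did not pair the samples (correlations of -0.07 to 0.06 over 9 same-numbered pairs, and 3 of 9 libraries correlated best with their own number), and the replicate block gave 48, 39 and 42 called members. Library sizes alone moved the medians of complexes I to V and Ndufaf to -0.0075, 0.010, -0.081, 0.050, 0.20 and -0.30 after LPS, to 0.097, -0.035, 0.21, 0.20, 0.22 and 0.081 with BHB against Medium, and to 0.073, -0.069, 0.077, 0.079, 0.42 and 0.12 in BHB against Control, with the all-gene median. After LPS they also turned Cox4i1 to -0.13, Cox6a2 to -0.23, Ndufa13 to -0.079, Ndufa8 to -0.27, Ndufb11 to -0.24, Ndufb8 to -0.16, Ndufb9 to -0.029, Ndufs8 to -0.052, Ndufv1 to -0.15, Sdhb to -0.081, Uqcrc1 to -0.23, Uqcrc2 to -0.081 and Uqcrfs1 to -0.12, and with BHB against Medium Cox4i1 to 0.12. The members in this list had a call under TMM or under library sizes alone. Others, without a call under either, also changed sign and are not listed. Without the filter on low counts, which adds Cox4i2 and Ndufa4l2, the complex IV median was 0.15 after LPS and 0.20 with BHB against Medium.

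With 1 library left out, the medians after LPS ranged from 0.12 to 0.30 for complex III, from 0.22 to 0.33 for complex IV and from -0.066 to 0.079 for Ndufaf. In BHB against Control they ranged from 0.057 to 0.093 for complex II, 0.18 to 0.26 for complex III and 0.19 to 0.29 for complex IV. The Ndufaf median after LPS was positive without Control replicate 2 (0.064) and without Medium replicate 3 (0.079).

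With 3 libraries per group, and most genes called, a call says little about a member by itself. After LPS, 18 of 41 higher calls and 8 of 9 lower calls held in all alternatives. Library sizes alone moved values after LPS downward, which takes away higher calls and keeps lower ones. These shares therefore cannot be set against each other. Low counts limit Cox4i2, Ndufa4l2, Cox7a1, Ndufaf6 and Ndufaf8. Complex V rests on 2 genes.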
